A study of Homo sapiens with 2 samples.

Results

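Amino acid transporters of 7 solute carrier (SLC) families were compared between cells that expressed CDR1AS and control cells. A gene was a member where its symbol in the platform's probe-to-gene table was that of SLC1, SLC3, SLC6, SLC7, SLC36, SLC38 or SLC43, a rule that reads symbols alone, although the families were picked with earlier results of these data known. The families held 59 genes with 66 probes, of 18638 genes with 21706 probes that carried 1 symbol. The cells were SW620, an established colon carcinoma line, cultured in DMEM with fetal bovine serum. The CDR1AS group expressed CDR1AS RNA, a circular RNA best known for binding the microRNA miR-7, and the control group carried control lentiviruses. Each group was 1 array of Cy5-labelled total RNA, so no difference below has a replicate check, an error between cultures or a test, and precision is limited by there being 2 arrays. The labels do not say whether the CDR1AS cells were a clone or a pool. No probe symbol used here was CDR1 or CDR1AS, so the labels were not checked on that RNA.

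Cells take up amino acids through families that differ in substrate and driving force. SLC1 members carry glutamate or exchange small neutral amino acids, and SLC38 members carry glutamine and other small neutral amino acids with sodium. SLC7 holds the cationic amino acid transporters and the light chains of heteromeric exchangers, which reach the cell surface only when joined to a heavy chain of SLC3. SLC36 members move small amino acids with protons, SLC43 holds carriers of large neutral amino acids and a purine carrier, and SLC6 spans glycine, GABA, taurine, creatine, monoamine and neutral amino acid carriers. In colon epithelium and in tumour cells these proteins supply glutamine, leucine and cystine for growth, protein synthesis and glutathione.

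A spot was above background where its intensity, the median Cy5 brightness in arbitrary units, passed the mean of the blank spots by 2 SD. The limit was 72.1 on the CDR1AS array and 69.1 on the control array, and the median gene probe had 109 and 103. Of the 59 members, 50 passed the limit on both arrays, 1 passed it only in CDR1AS cells and 8 passed it on neither array. The 8 were the glutamate carrier gene SLC1A1, the serotonin and glycine carrier genes SLC6A4 and SLC6A5, SLC7A3, SLC7A13, SLC7A14, SLC38A4 and SLC38A8. Only 18 of the 51 measured members (35.3%) passed 2 times the limit on both arrays, against 44.3% of the 16685 genes measured. Log2 ratios were taken after background correction with an offset of 50 and quantile normalization, which draws the folds of dim genes towards 1. Deposited values, which carry no offset, are given where this matters. As a rough yardstick of technical error, 24 repeated spots of each of 2 positive controls varied within an array with log2 SDs between 0.10 and 0.24. This gives a ratio of such spots an SD of up to 0.28. It was taken from raw intensities, without the offset or normalization, so it is not the error of the ratios below.

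Markers of colon epithelium and of other cell types were read beside the epithelial label of the cells. Of 11 colon epithelium markers on the arrays, 9 were above background on both, as were 15905 of the 18638 genes. Counts above the limit therefore do not set these markers apart. EPCAM had 6334 on the CDR1AS array and 8538 on the control array, and VIL1 had 755 and 607. Their log2 ratios were −0.54 and 0.19 in the main setting, but 2.13 and −0.27 with local background subtracted. The local background beside EPCAM was 2161 on the CDR1AS array and 8072 on the control array. CDX1, KRT20 and LGALS4 were dimmer, at 83.4, 92.4 and 121 on the CDR1AS array and 83.2, 82.8 and 122 on the control array. CDH17 and CEACAM5 passed the limit on 1 array each, and the intestinal transcription factor gene CDX2 was 1.76-fold lower on the CDR1AS array (a log2 ratio of −0.36 with local background subtracted). Of other markers, 3 of 4 leukocyte, 3 of 6 fibroblast and 4 of 5 endothelium genes passed the limit on at least 1 array. So did 16685 of the 18638 genes. No main-setting ratio of these markers was past 1.5-fold. PECAM1, above background on the CDR1AS array only, had 98.3 there and 66.4 on the control array. Its log2 ratio of 0.51 is thus a lower bound within the main setting, and it was 0.03 with local background subtracted. The leukocyte marker PTPRC and the collagen genes COL1A1, COL1A2 and COL3A1 were not above background on either array. Other markers of these lists were. On the CDR1AS array the leukocyte markers LYZ, CD14 and CD3E had 203, 120 and 84.4, and on the control array 201, 122 and 82.3. The fibroblast markers DCN, LUM and PDGFRB had 243, 162 and 169 on the CDR1AS array and 236, 187 and 151 on the control array. Several of these were brighter than CDX1, KRT20 and LGALS4.

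Transporter genes differed little between the arrays in the main setting. Total RNA of a culture cannot tell fewer cells with a transcript from less of it per cell. No member was at or past 2-fold in either direction in the main setting, where 0.755% of all genes measured were at least 2-fold higher and 0.581% at least 2-fold lower on the CDR1AS array. At or past 1.5-fold, 0 of 51 members were higher and 2 were lower, SLC7A4 and SLC43A3, against 2.61% and 2.24% of all genes. The median log2 ratio of the members was −0.01 (range −0.81 to 0.48, quartiles −0.08 and 0.05), and that of all genes was −0.01 (quartiles −0.10 and 0.09). In all, 24 members lay above 0 and 27 below, and 44 of 51 (86.3%) were within 1.2-fold, against 80.5% of all genes. The ratios of 6 members exceeded the 0.28 of repeated control spots: SLC7A4, SLC43A3, SLC1A7, SLC1A5, SLC7A2 and SLC36A4. They were 11.8% of the measured members, against 18.0% of all genes past that spread. Fewer members than genes in general passed 2 times the limit (35.3% against 44.3%), and the offset draws dim ratios towards 0. These shares therefore do not show that members differed less than other genes. Among 239 measured SLC genes of other families, 3 were at least 2-fold higher and 2 at least 2-fold lower, with a median of −0.02. The counts depended on the setting. The authors' deposited value table gave 5 members higher and 4 lower at 1.5-fold, against 9.22% and 6.40% of the genes in it. The higher ones were SLC7A2, SLC6A9, SLC36A4, SLC1A4 and SLC36A2, and the lower ones SLC7A4, SLC43A3, SLC6A20 and SLC1A7.

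**Figure D1:**
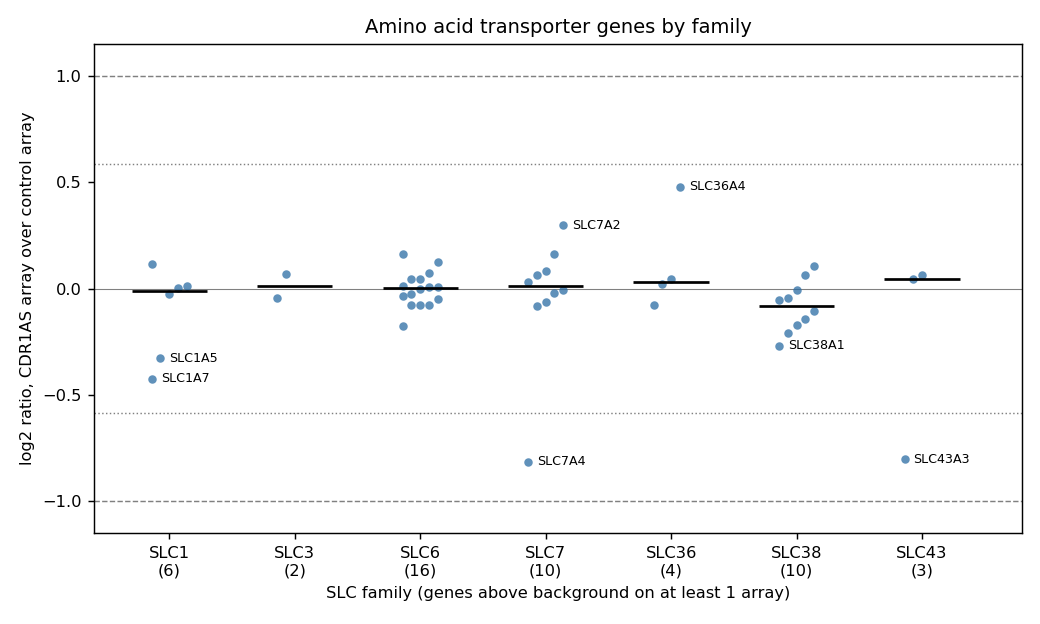
Log2 ratio (CDR1AS array over control array) of each measured member, by SLC family with the number of genes in brackets; points are genes, horizontal bars are family medians, dotted lines mark 1.5-fold and dashed lines 2-fold. Family medians lie between −0.08 and 0.05, and SLC7A4 and SLC43A3 lie below the lower 1.5-fold line.

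By family, medians stayed close to 0. They were −0.01 for 6 SLC1 genes, 0.01 for 2 SLC3 genes, 0.00 for 16 SLC6 genes and 0.01 for 10 SLC7 genes. They were 0.03 for 4 SLC36 genes, −0.08 for 10 SLC38 genes and 0.05 for 3 SLC43 genes. The spread within a family was uneven: the 16 SLC6 genes had an SD of 0.08, against 0.30 for SLC7 and 0.49 for SLC43, each widened by 1 lower gene. No direction is drawn from a family, since every family median changed sign under at least 1 of the 8 alternatives tried.

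The main heteromeric exchangers had ratios close to 0 in the main setting, but those of SLC3A2 and SLC7A5 were 0.78 and 0.84 with local background subtracted. SLC3A2, the CD98 heavy chain that partners most of the light chains, had 1014 on the CDR1AS array and 964 on the control array, a log2 ratio of −0.04. SLC7A5 (LAT1), its partner for leucine and other large neutral amino acids, had 539 on the CDR1AS array and 516 on the control array (−0.06). SLC7A11 (xCT), the cystine and glutamate exchanger that feeds glutathione synthesis, had 121 on the CDR1AS array and 109 on the control array (0.06). The raw brightness of these spots was slightly greater on the CDR1AS array, as was that of the median probe. The exchanger genes for cationic and neutral amino acids, SLC7A7 and SLC7A6, had ratios of 0.09 and 0.16. SLC7A6 had a further probe with 135 on the CDR1AS array and 167 on the control array, whose ratio was −0.45, so its probes disagreed in sign. SLC7A8 (LAT2) was at −0.02 and SLC7A10, a carrier of small neutral amino acids including D-serine, at −0.08. SLC3A1 (rBAT), the heavy chain of the cystine carrier of kidney and gut, had 81.5 on the CDR1AS array and 74.1 on the control array, close to the limits (0.07). Its light chain SLC7A9 had 217 on the CDR1AS array and 199 on the control array (0.03). In the main setting all 7 measured light chains lay between −0.08 and 0.16 by their brightest probes. SLC7A5 has pseudogene copies, and whether its probe tells them apart is not known here.

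SLC7A4, a member of the cationic branch whose transport activity is not established, had the lowest ratio of all members in the main setting. Its spot had 191 on the CDR1AS array and 302 on the control array, and it was 1.76-fold lower (log2 ratio −0.81). The authors' deposited values were 55.6 on the CDR1AS array and 112 on the control array, 2.02-fold lower. The ratio stayed between −1.02 and −0.77 under all 8 alternatives, local background subtraction included (−0.80). Of the 1668 genes in its decile of mean level, 31 (1.86%) had a ratio at least as low. SLC7A1 (CAT1), the widely expressed arginine and lysine carrier, had 178 on the CDR1AS array and 167 on the control array (−0.01). SLC7A2 (CAT2), the arginine carrier induced in macrophages, stood on the other side of 0. Its spot had 95.6 on the CDR1AS array and 76.0 on the control array, a log2 ratio of 0.30, and it was named after its value was seen. The deposited values of SLC7A2 were 11.9 on the CDR1AS array and 4.9 on the control array, 2.43-fold higher, with the control spot close to its limit of 69.1, and its log2 ratio was 0.02 with local background subtracted. Of the 1669 genes of its decile of level, 54 (3.24%) were at least as high.

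SLC43A3, known as a purine nucleobase carrier rather than an amino acid carrier, was the other member past 1.5-fold. It had 282 on the CDR1AS array and 443 on the control array and was 1.74-fold lower (−0.80), and 1.85-fold lower in the authors' deposited table. Of 1669 genes of its decile of level, 45 (2.70%) were at least as low. The local background beside its spot was 175 on the CDR1AS array and 445 on the control array, as bright as the control spot itself. With local background subtracted, the ratio turned to 0.68, so its direction rests on leaving that column out. The part of local background in this difference was not tested. The large neutral amino acid carriers of the family lay close to 0. SLC43A1 (LAT3) had 303 on the CDR1AS array and 268 on the control array (0.06), and SLC43A2 (LAT4) had ratios of 0.05 and 0.12 for its probes.

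**Figure D2:**
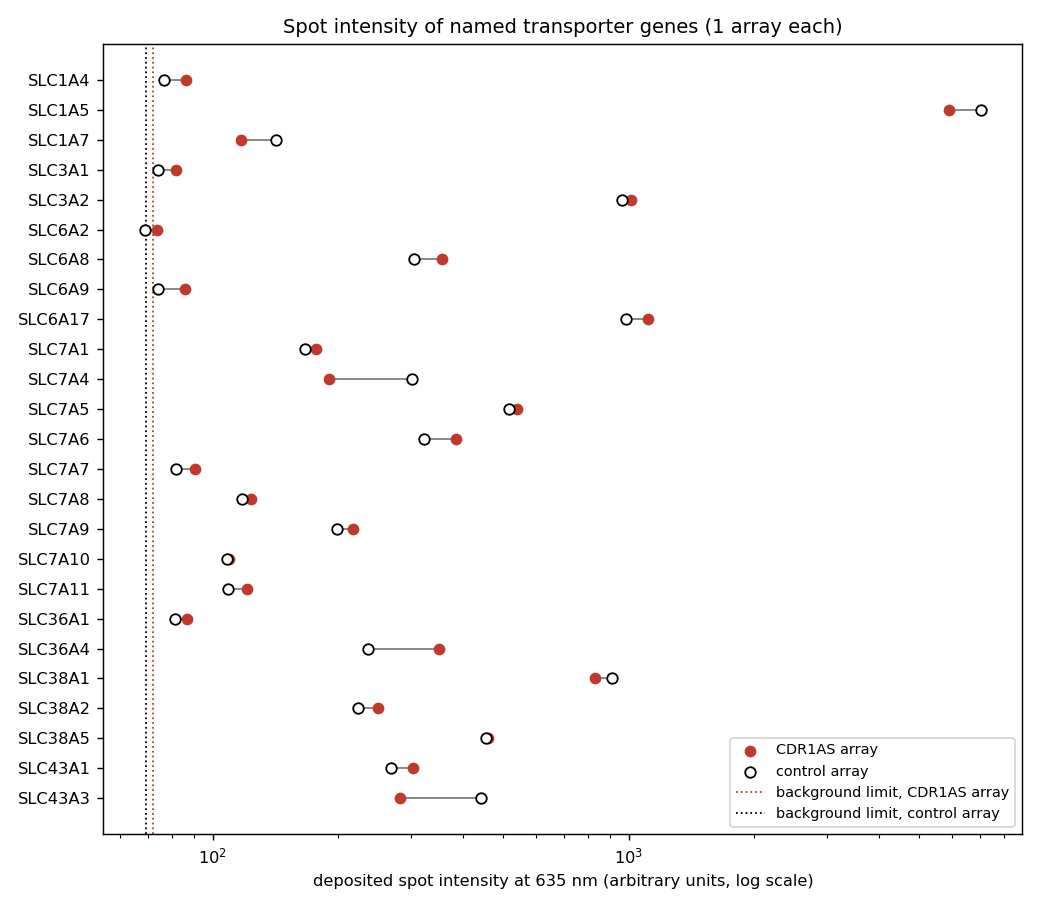
Deposited spot intensity (arbitrary units, log scale) of 25 members on the CDR1AS array (filled) and the control array (open), 1 array each; dotted lines are the background limits of 72.1 and 69.1. The points of SLC7A4 and SLC43A3 are farther left on the CDR1AS array, and SLC36A4 is farther right.

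Among the SLC1 genes, SLC1A5 (ASCT2), the sodium-dependent exchanger through which many tumour cells take up glutamine, had 5879 on the CDR1AS array and 7017 on the control array. Its log2 ratio was −0.33, short of 1.5-fold, and 231 of 1669 genes (13.8%) of its decile of level were at least as low. With local background subtracted the ratio was −2.61, and the background beside its spot was 4337 on the CDR1AS array and 1518 on the control array. The related exchanger gene SLC1A4 (ASCT1) was dim, with 86.3 on the CDR1AS array and 76.3 on the control array (0.12, and 1.54-fold higher in the authors' deposited table). The glutamate carrier genes SLC1A2, SLC1A3 and SLC1A6, known mostly from brain, had ratios between −0.02 and 0.01. The brightest probe of SLC1A7, a retinal glutamate carrier gene, had 117 on the CDR1AS array and 142 on the control array (−0.42). Its other probe gave 0.04, and local background subtraction gave 0.11 for the brighter one, so both were of the opposite sign to the main value.

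Of the 10 measured SLC38 genes 8 lay below 0 in the main setting, all within 1.5-fold. SLC38A1 (SNAT1), a sodium-coupled glutamine carrier, had 829 on the CDR1AS array and 909 on the control array (−0.27), while its other probe gave 0.03. SLC38A2 (SNAT2), the system A carrier known to be induced by amino acid shortage, had 250 on the CDR1AS array and 223 on the control array (0.06). SLC38A5 (SNAT5), a system N carrier of glutamine and histidine, had 459 on the CDR1AS array and 453 on the control array (−0.11). SLC38A9, the lysosomal arginine sensor of the mTORC1 pathway, was at −0.21, with 154 on the CDR1AS array and 164 on the control array. SLC38A3, SLC38A6, SLC38A7, SLC38A10 and SLC38A11 lay between −0.17 and −0.01, and SLC38A12 was at 0.11. With local background subtracted, the family's median was 0.19, and SLC38A1 was at 0.44, SLC38A2 at 0.57, SLC38A5 at 0.38 and SLC38A9 at 0.32.

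SLC36A4 (PAT4), a carrier of proline and tryptophan, had the highest ratio of all members in the main setting. Its spot had 350 on the CDR1AS array and 236 on the control array, a log2 ratio of 0.48 or 1.39-fold. The authors' deposited values gave 1.58-fold, and the ratio was 1.09 with local background subtracted. It did not rank highest in those settings. SLC7A2 (2.43-fold) and SLC6A9 (1.88-fold) were higher by the deposited values, and SLC6A17 (1.22) with local background subtracted. With offset 16, SLC7A2 was at 0.57 and SLC36A4 at 0.55. The local background beside the spot of SLC36A4 was 98.2 on the CDR1AS array and 207 on the control array. In its decile of level, 120 of 1669 genes (7.19%) were at least as high. The other proton-coupled carriers were dim: SLC36A1 (PAT1), found on lysosomes and on the gut brush border, had 86.8 on the CDR1AS array and 81.1 on the control array (0.02). SLC36A2 was at 0.04 and SLC36A3 at −0.08.

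The 16 measured SLC6 genes lay between −0.17 and 0.16. SLC6A8, the creatine carrier gene, had 357 on the CDR1AS array and 304 on the control array (0.12). A pseudogene copy of it, SLC6A10P, has a probe of its own with a ratio of −0.05, and how far either probe detects the other's transcript is not known. SLC6A17, a synaptic vesicle carrier of neutral amino acids in brain, had 1114 on the CDR1AS array and 988 on the control array (0.05). SLC6A9 (GlyT1), a glycine carrier, was near the floor, with 85.9 on the CDR1AS array and 74.1 on the control array (0.16, 1.88-fold higher in the authors' deposited table). The taurine carrier gene SLC6A6 was at −0.05. SLC6A14, a broad amino acid carrier gene of colon tumours and airway, was at 0.01 with 77.0 on the CDR1AS array and 72.5 on the control array. SLC6A19 and SLC6A20, the neutral amino acid and proline carriers of the small intestine and kidney, were at 0.07 and −0.08. SLC6A2, the noradrenaline carrier gene, was above background on the CDR1AS array only, at 73.5, against 68.8 on the control array. Set against the lowest value above background there, its log2 ratio had a lower bound of 0.01. The authors' deposited table gave 1.9 on the CDR1AS array and 1.4 on the control array, 1.36-fold higher.

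Transporters that earlier studies report as targets of ATF4, the transcription factor of the amino acid response, were set beside the genes of that response. The 8 listed members, SLC7A11, SLC7A5, SLC3A2, SLC7A1, SLC1A4, SLC1A5, SLC38A2 and SLC6A9, were all measured. Their ratios ran from −0.33 to 0.16 with a median of 0.03, 4 above 0 and 4 below, and in the main setting 0 were past 1.5-fold. In the authors' deposited table SLC6A9 and SLC1A4 were past 1.5-fold higher. With local background subtracted SLC7A5 and SLC3A2 were past it higher and SLC1A5 lower. Of 19 regulators of the response, 14 were above 0 and the median was 0.11, against 7875 of 16685 genes measured and a median of −0.01. DDIT3 (CHOP), a stress transcription factor, had 703 on the CDR1AS array and 318 on the control array, 2.08-fold higher. PPP1R15A (GADD34), which restores translation after stress, was 1.65-fold higher, but its ratio was −0.18 with local background subtracted. ATF4 itself had a ratio of −0.01, with 2207 on the CDR1AS array and 2053 on the control array, and of −0.79 with local background subtracted. Its activity is known to be set largely by translation, which arrays of RNA do not measure. At 1.5-fold, 2 regulators were higher and 0 lower in the main setting, against 3 and 1 by the authors' deposited values and 6 and 3 with local background subtracted. The shares of all genes, higher and lower, were 2.61% and 2.24% in the main setting. By the deposited values they were 9.22% and 6.40%, and with local background subtracted 8.53% and 8.20%.

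**Figure D3:**
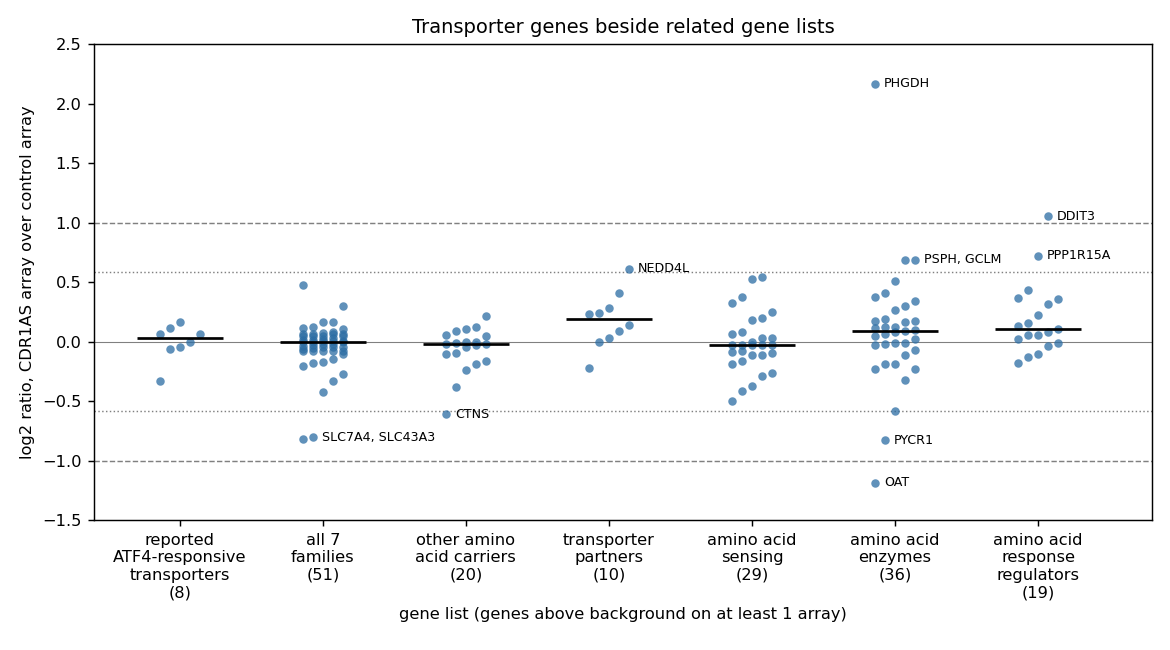
Log2 ratio (CDR1AS array over control array) of measured genes in 7 lists, with the number of genes in brackets; points are genes, bars are list medians, dotted lines mark 1.5-fold and dashed lines 2-fold. Genes past 1.5-fold are named; the 8 reported ATF4-responsive transporters lie between −0.33 and 0.16, while PHGDH, at 2.16, and DDIT3, at 1.05, lie above the 2-fold line.

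Enzymes that make or use the transported amino acids spread more widely than the carriers in the main setting. Of the 51 measured members, 32 were under 2 times the limit on both arrays, where the offset draws ratios towards 0. Fewer of the enzymes were that dim, so the spreads do not show that enzymes differed more than carriers. Among 36 measured enzymes the median was 0.09, with 22 ratios above 0 and 14 below, and the range was −1.18 to 2.16. Over all 16685 genes measured, 7875 ratios were above 0 and 8799 below. PHGDH, the first enzyme of serine synthesis, had 773 on the CDR1AS array and 170 on the control array. PSPH, the last enzyme of that pathway, had 963 on the CDR1AS array and 554 on the control array, 1.61-fold higher. GCLM, a subunit of the rate-limiting enzyme of glutathione synthesis, was likewise 1.61-fold higher, a ratio that was 0.06 with local background subtracted. OAT, the mitochondrial ornithine aminotransferase, was 2.27-fold lower, with 491 on the CDR1AS array and 1006 on the control array. PYCR1, of proline synthesis, was 1.78-fold lower. At 1.5-fold, the 3 higher and 2 lower enzymes of the main setting became 6 and 3 by the authors' deposited values and 8 and 4 with local background subtracted. The shares of all genes rose as well, from 2.61% higher and 2.24% lower in the main setting. They were 9.22% and 6.40% by the deposited values, 8.53% and 8.20% with local background subtracted, and 4.09% and 3.29% with offset 16. Of 29 measured genes of amino acid sensing by mTORC1, 11 had ratios above 0 and 18 below, with 0 past 1.5-fold in the main setting. The count depended on the setting: by the authors' deposited values RRAGD, SESN2, SESN3 and FNIP1 were past it higher and MIOS lower, and with offset 16 RRAGD and SESN2 were. With local background subtracted 3 were higher and 3 lower, and RRAGD and SESN2 were at 0.11 and 0.06. Of 20 measured amino acid carriers outside the 7 families, 6 were above 0, and in the main setting only the lysosomal cystine exporter gene CTNS was past 1.5-fold, at 1.53-fold lower (−0.08 with local background subtracted). SLC16A10, an aromatic amino acid carrier gene, was at −0.38 in the main setting, −0.69 with offset 16 and 2.46-fold lower in the authors' deposited table. SLC25A18, a mitochondrial glutamate carrier gene above background on the CDR1AS array only, was 1.86-fold higher in that table. Its deposited values were near the floor, at 2.6 on the CDR1AS array and 1.4 on the control array. The log2 ratio of SLC25A18 was 0.04 in the main setting and −0.05 with local background subtracted. Of 10 proteins known to bind, traffic or degrade members, 8 were above 0 with a median of 0.19 in the main setting. The highest was NEDD4L, a ubiquitin ligase of membrane transporters, at 1.53-fold higher, but its ratio was −0.36 with local background subtracted. Most of the 10 were then below 0, so no direction is drawn from this list. At 1.5-fold, 1 was higher and 0 lower in the main setting, against 3 and 0 by the authors' deposited values. With local background subtracted 0 were higher and 1 lower (OTUB1, at −1.95).

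Stretches before annotated start sites of 3 members are shown because they hold letters that ATF4 or E-box factors are known to bind. The ratios of these genes lay within 1.5-fold in the main setting but not in every setting. With local background subtracted SLC1A5 was at −2.61 and SLC7A5 at 0.84, and SLC1A4 was 1.54-fold higher in the authors' deposited table. The stretches were taken from RefSeq (GRCh38.p14) and read 5′ to 3′ on the gene's strand, with each motif match in capitals. Of the 59 members, 45 had at least 1 entry of 250 bases before and 50 after a start, 67 entries in all. SLC7A4, SLC43A3 and SLC7A11 had no entry and were not searched. The first stretch is of SLC1A5 (chr19:46784815-46784964, minus strand), whose TGATGNAA match begins 97 bases before that start, 1 of those annotated for the gene. The next is of SLC1A4 (chr2:64989249-64989399, plus strand), whose match is on the opposite strand and begins 7 bases before the start. The last is of SLC7A5 (chr16:87869508-87869657, minus strand), with an E-box, CACGTG, that begins 130 bases before the start.
SLC1A5: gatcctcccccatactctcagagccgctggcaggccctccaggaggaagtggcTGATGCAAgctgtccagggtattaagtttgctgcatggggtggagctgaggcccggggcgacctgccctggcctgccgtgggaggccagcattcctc
SLC1A4: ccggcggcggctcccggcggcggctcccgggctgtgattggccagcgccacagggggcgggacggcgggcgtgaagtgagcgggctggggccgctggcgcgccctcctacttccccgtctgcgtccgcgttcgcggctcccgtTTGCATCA
SLC7A5: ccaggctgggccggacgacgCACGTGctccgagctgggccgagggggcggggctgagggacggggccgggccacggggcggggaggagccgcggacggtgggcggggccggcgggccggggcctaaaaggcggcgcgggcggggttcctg

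The motif TGATGNAA, searched on both strands, was in 6 of the 67 member entries (8.96%), against 3.62% of all 35116 entries. The 6 members were SLC1A3, SLC1A4, SLC1A5, SLC3A2, SLC7A1 and SLC38A1, with ratios from −0.33 to 0.12. The E-box CACGTG, the same on both strands, was in 10 member entries (14.9%), against 7.26% of all. These 10 belonged to SLC1A5, SLC1A7, SLC6A16, SLC7A5, SLC7A7, SLC7A8, SLC36A1, SLC38A5, SLC38A7 and SLC43A1, with ratios from −0.42 to 0.09. No match of one motif overlapped a match of the other in these entries. MYC, a known E-box factor, had a ratio of 0.06, and the lysosomal E-box factors TFEB and TFE3 had 0.02 and 0.09. A match describes the sequence and is no evidence of binding in these cells.

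Several members lie beside each other in the genome, with no other measured gene between them in the RefSeq order. SLC38A1 and SLC38A2 on chromosome 12 had ratios of −0.27 and 0.06, and SLC6A12 and SLC6A13 on the same chromosome −0.08 and −0.00. On chromosome 5, SLC36A3, SLC36A2 and SLC36A1 had −0.08, 0.04 and 0.02, and SLC6A19 and SLC6A18 had 0.07 and −0.08. The neighbours of the lower members had ratios nearer 0 in the main setting, but not all were bright enough to read. Beside SLC43A3 on chromosome 11, PRG2 had a ratio of 0.01 and RTN4RL2 of 0.02. Beside SLC7A4 on chromosome 22, P2RX6 had −0.12 and TUBA3GP 0.07. PRG2 had 74.4 on the CDR1AS array and 70.0 on the control array, and P2RX6 had 75.5 and 76.3. Both were close to the limits, where the offset draws ratios towards 0, so whether they differed cannot be told. SLC36A4 had MTNR1B, above background on the control array only, on one side and SMCO4, at −0.38, on the other.

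Local background was the setting that moved most members. It was not subtracted in the main setting, and it was brighter on the control array for 30 of the 51 members and 52.5% of all genes. With it subtracted, 6 members were at least 1.5-fold higher and 2 lower, against 8.53% and 8.20% of all genes. The 6 were SLC36A4, SLC6A17, SLC7A5, SLC3A2, SLC43A3 and SLC6A8, and the 2 were SLC1A5 and SLC7A4. SLC7A5 then had a ratio of 0.84 and SLC3A2 of 0.78. The local background beside SLC7A5 was 241 on the CDR1AS array and 455 on the control array, and beside SLC3A2 it was 379 and 802. SLC7A4 was the only member at least 1.5-fold lower with and without this subtraction.

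**Figure D4:**
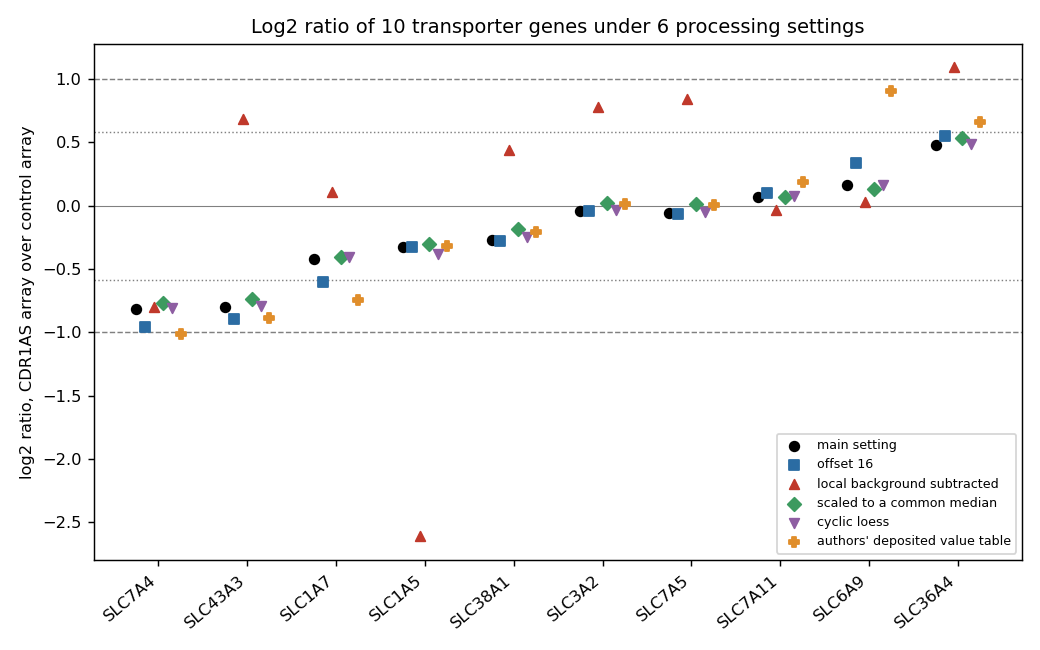
Log2 ratio (CDR1AS array over control array) of 10 members under 6 processing settings, with dotted lines at 1.5-fold and dashed lines at 2-fold; each symbol is 1 setting and each setting uses the same 2 arrays. SLC7A4 is below the lower 1.5-fold line in all 6, whereas SLC43A3 is at 0.68 and SLC1A5 at −2.61 with local background subtracted.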

How the data were processed

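Total RNA was measured on 2 one-colour Cy5 arrays, 1 per group. The deposited intensity is the median spot brightness, per the file headers, read at 3 scanner gains. The headers and labels do not state how the gains were joined or a genome build. Columns of the deposited value table were straight lines of the spot intensity (largest residual 0.0559), that is, intensity minus the blank level times 1 factor per array, with medians of 25 on both arrays. Its scale, centring and direction are thereby known.

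With limma 3.58.1 in R 4.3.3, normexp without local background (offset 50), quantile normalization and log2 were applied to 24459 gene probes, 1 flagged probe left out. A gene took its brightest probe and was kept above background on at least 1 array. Dim sides were set to the lowest value above background. With 1 array per group no test was run. Named members were those past 1.5-fold, the 2 brightest per family, heavy and light chains, reported ATF4 targets and genes measured on 1 array. Members and lists were chosen with earlier results of these data known. The steps were also run on simulated data. The planted changes there were larger than 2-fold and local background was not simulated, so that run does not bear on the smaller differences here. Alternatives were offset 16, local background subtraction, median scaling, cyclic loess, the deposited table, no filter, a stricter filter and the median of probes.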

Additional observations from a re-analysis of the deposited data

How the results depend on the processing

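Of the 8 alternatives 7 changed a single step, while the authors' deposited table has its own background level and scaling, no offset and 16250 genes. A median or ratio was taken to move where it shifted by more than 0.28 on the log2 scale, the SD of a ratio of repeated control spots, and a count where it differed by more than 1.5 times. With local background subtracted, 2 members were at least 2-fold higher (SLC36A4 and SLC6A17) and 1 lower (SLC1A5), 6 were at least 1.5-fold higher, the SLC3 median was 0.42 and SLC43A3 turned to 0.68. In the authors' deposited value table, 1 member was at least 2-fold higher (SLC7A2) and 1 lower (SLC7A4), 5 were at least 1.5-fold higher and 4 lower, and the SLC36 median was 0.36. With the filter at 2 times the background limit on both arrays, which left 18 members, the medians were −0.33 for SLC1, 0.48 for SLC36 and −0.37 for SLC43, since 1 or 2 genes were left in each. Offset 16 gave 3 members at least 1.5-fold lower, the third being SLC1A7. In all, 84 counts and medians stayed within these limits and 12 moved, and of values of named members 170 stayed, 19 moved and 1 reversed. Over all genes, 436 were at least 1.5-fold higher and 373 lower in the main setting, against 1424 and 1368 with local background subtracted, 1498 and 1040 in the deposited table, and 682 and 549 with offset 16. At 2-fold the main counts were 126 and 97, against 763 and 554, 543 and 368, and 230 and 173 in the same order of settings. The strict filter left 75 and 65 at 2-fold and 281 and 274 at 1.5-fold. The cause of these shifts was not tested. Signal over background limits the dim members: 32 of 51 were under 2 times the limit on both arrays, where the offset draws ratios towards 0. No paired analysis was possible because each group was 1 array. No result met the criteria for a closer look.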
